A study of Mus musculus with 20 samples.

Results

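The 41 genes described here license, start, copy and supply DNA replication, and they were taken by name from the 51826 genes of the count table. They comprised 10 genes of origin licensing, 6 of helicase activation, 6 DNA polymerase and primase subunits, 6 of the sliding clamp and its loader, 3 of lagging-strand and single-stranded DNA handling, 5 of deoxynucleotide supply and 5 of chromatin assembly, histone mRNA and uracil repair. RNA was sequenced from primary renal myofibroblasts, the contractile and matrix-forming fibroblasts that grow out of pieces of mouse kidney. Mice were C57BL/6J, wild-type (WT) or lacking in the whole body the full-length and N isoforms of the E3 ubiquitin ligase WWP2 (WWP2-/-, labelled KO). Cells of each genotype were left untreated or given TGFβ1, the main profibrotic cytokine, for 72 h. Each of the 4 groups held 5 libraries, 20 in all, and all cells were at passage 2. The labels do not say whether each library came from its own mouse, or whether an untreated and a treated library shared a culture, so p-values measure the spread between these libraries, which may be technical. The question was how the transcripts of replication genes differed between WWP2-/- and WT myofibroblasts, without and with TGFβ1.

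Before S phase, the origin recognition complex, Cdc6 and Cdt1 load the MCM hexamer onto DNA, and Mcm10, Cdc45 and the GINS complex then turn it into an active helicase. The E2F transcription factors, held in check by the retinoblastoma protein family, switch on most of these genes as a cell leaves quiescence, so their transcripts are widely used to describe proliferating cultures. Fibroblasts in culture divide until they become crowded, and TGFβ1 can slow or promote their division depending on the setting. In bulk RNA, fewer cycling cells and less replication mRNA per cycling cell cannot be told apart.

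Library totals ran from 47520759 to 73063697 counts, with a median of 55863325.5, and values are given below as CPM, read counts divided by the normalised library total and scaled to a common size. A floor of 3 counts corresponded to 0.039 to 0.0613 CPM, which covers counting error only. Wwp2 itself was lower in WWP2-/- libraries, with an edgeR log2 fold change of -1.37 untreated (adjusted p = 4.32e-08) and -1.49 with TGFβ1 (adjusted p = 1.05e-08). The contractile gene Acta2, a defining marker of myofibroblasts, was at 1016 to 3430 CPM in 18 libraries and at 38.9 and 50.4 CPM in untreated WWP2-/- replicate 3 and TGFβ1-treated WWP2-/- replicate 1. These are called Acta2-low below. Fold changes of members that moved by over 1.5 times or changed sign without them are given both ways, those of the clamp loader as ranges. The female transcript Xist was above 1 CPM in 4 of 5 untreated WT, 4 of 5 treated WT, 2 of 5 untreated WWP2-/- and 1 of 5 treated WWP2-/- libraries, and 5 libraries held both Xist and Y-linked transcripts.

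Promoter sequences are shown because E2F binding is the textbook control of this gene set. RefSeq promoter windows of 300 bases, from 250 bases before to 50 after the annotated start on GRCm38.p6, were found for 34 of the 41 members. The E2F motifs TTTCCCGC, TTTCGCGC and TTTGGCGC were searched on both strands. At least 1 of them was in the window of 13 of the 34 members (38.2%), against 2.12% of 27025 genes with a window. The members were Orc1, Cdc6, Cdt1, Mcm3, Mcm5, Mcm6, Mcm7, Gins3, Pola1, Pold1, Rfc3, Lig1 and Uhrf1. The 4 windows below belong to members whose values are given library by library, with E2F motif letters in capitals and all letters 5′ to 3′ on the strand of the gene.
Mcm5: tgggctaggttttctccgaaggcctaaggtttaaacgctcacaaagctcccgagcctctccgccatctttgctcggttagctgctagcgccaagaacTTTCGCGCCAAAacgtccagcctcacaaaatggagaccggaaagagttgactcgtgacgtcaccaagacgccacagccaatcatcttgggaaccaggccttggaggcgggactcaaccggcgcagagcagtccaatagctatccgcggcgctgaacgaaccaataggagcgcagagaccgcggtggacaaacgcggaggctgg
Cdc6: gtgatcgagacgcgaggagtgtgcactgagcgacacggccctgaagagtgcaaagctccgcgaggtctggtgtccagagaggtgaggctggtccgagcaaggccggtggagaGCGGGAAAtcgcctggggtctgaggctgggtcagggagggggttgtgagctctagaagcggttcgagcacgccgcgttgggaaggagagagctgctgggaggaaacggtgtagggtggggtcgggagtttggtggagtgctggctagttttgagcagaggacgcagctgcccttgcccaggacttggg
Cdt1: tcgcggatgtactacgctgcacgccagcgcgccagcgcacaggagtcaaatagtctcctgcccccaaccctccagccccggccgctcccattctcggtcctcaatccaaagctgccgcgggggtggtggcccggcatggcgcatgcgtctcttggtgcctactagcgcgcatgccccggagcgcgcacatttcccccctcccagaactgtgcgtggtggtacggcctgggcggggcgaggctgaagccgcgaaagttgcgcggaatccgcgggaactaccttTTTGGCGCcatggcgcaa
Pola1: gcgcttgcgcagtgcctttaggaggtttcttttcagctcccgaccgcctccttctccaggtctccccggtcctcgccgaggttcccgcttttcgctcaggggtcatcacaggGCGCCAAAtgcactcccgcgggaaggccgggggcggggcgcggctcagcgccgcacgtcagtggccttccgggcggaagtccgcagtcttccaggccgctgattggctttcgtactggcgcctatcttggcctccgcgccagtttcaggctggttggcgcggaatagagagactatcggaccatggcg
The Mcm5 window lies at chr8:75109259-75109558 on the plus strand, and its capitals hold TTTCGCGC on the gene's strand 153 bases before the start site and TTTGGCGC on the opposite strand, the 2 motifs sharing 4 letters. The Cdc6 window, chr11:98907901-98908200 on the plus strand, carries TTTCCCGC on the opposite strand 138 bases before the RefSeq start. GENCODE starts this gene at position 98907801, before the window, so the motif lies downstream of that start. In the Cdt1 window, chr8:122567765-122568064 on the plus strand, TTTGGCGC starts 33 bases into the transcript. The Pola1 window, chrX:93632106-93632405 on the minus strand, carries TTTGGCGC on the opposite strand 138 bases before the start. CCAAT, the core of the NF-Y motif, was in 61.8% of the members' windows and 41.1% of those of all genes, and TTTGAA, the core of the CHR element of late cell-cycle genes, in 11.8% and 20.2%. A match of letters is a description, not a measured binding site.

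All 41 members passed the filter on low counts. Per kilobase of annotated exon, the levels in untreated WT cells ran from 28.0 ± 2.29 CPM per kb (SD, n = 5) for Pcna, the sliding clamp, to 0.201 ± 0.0319 CPM per kb for the helicase activator Mcm10. Rrm1, the large subunit of ribonucleotide reductase, ranked second at 17.0 ± 6.85 CPM per kb and did not differ beyond its spread from Gins4 at 16.9 ± 3.9 CPM per kb. Dut, the dUTPase that keeps uracil out of DNA, followed at 13.2 ± 1.84 CPM per kb. The next members, Mcm7 at 7.58 ± 1.51, Mcm4 at 7.39 ± 0.682 and Rrm2 at 6.88 ± 1.81 CPM per kb, overlapped within their spreads. Besides Mcm10, the 4 lowest were Pole, Cdc6, Orc1 and Fen1, at 0.285 to 0.44 CPM per kb.

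**Figure D1:**
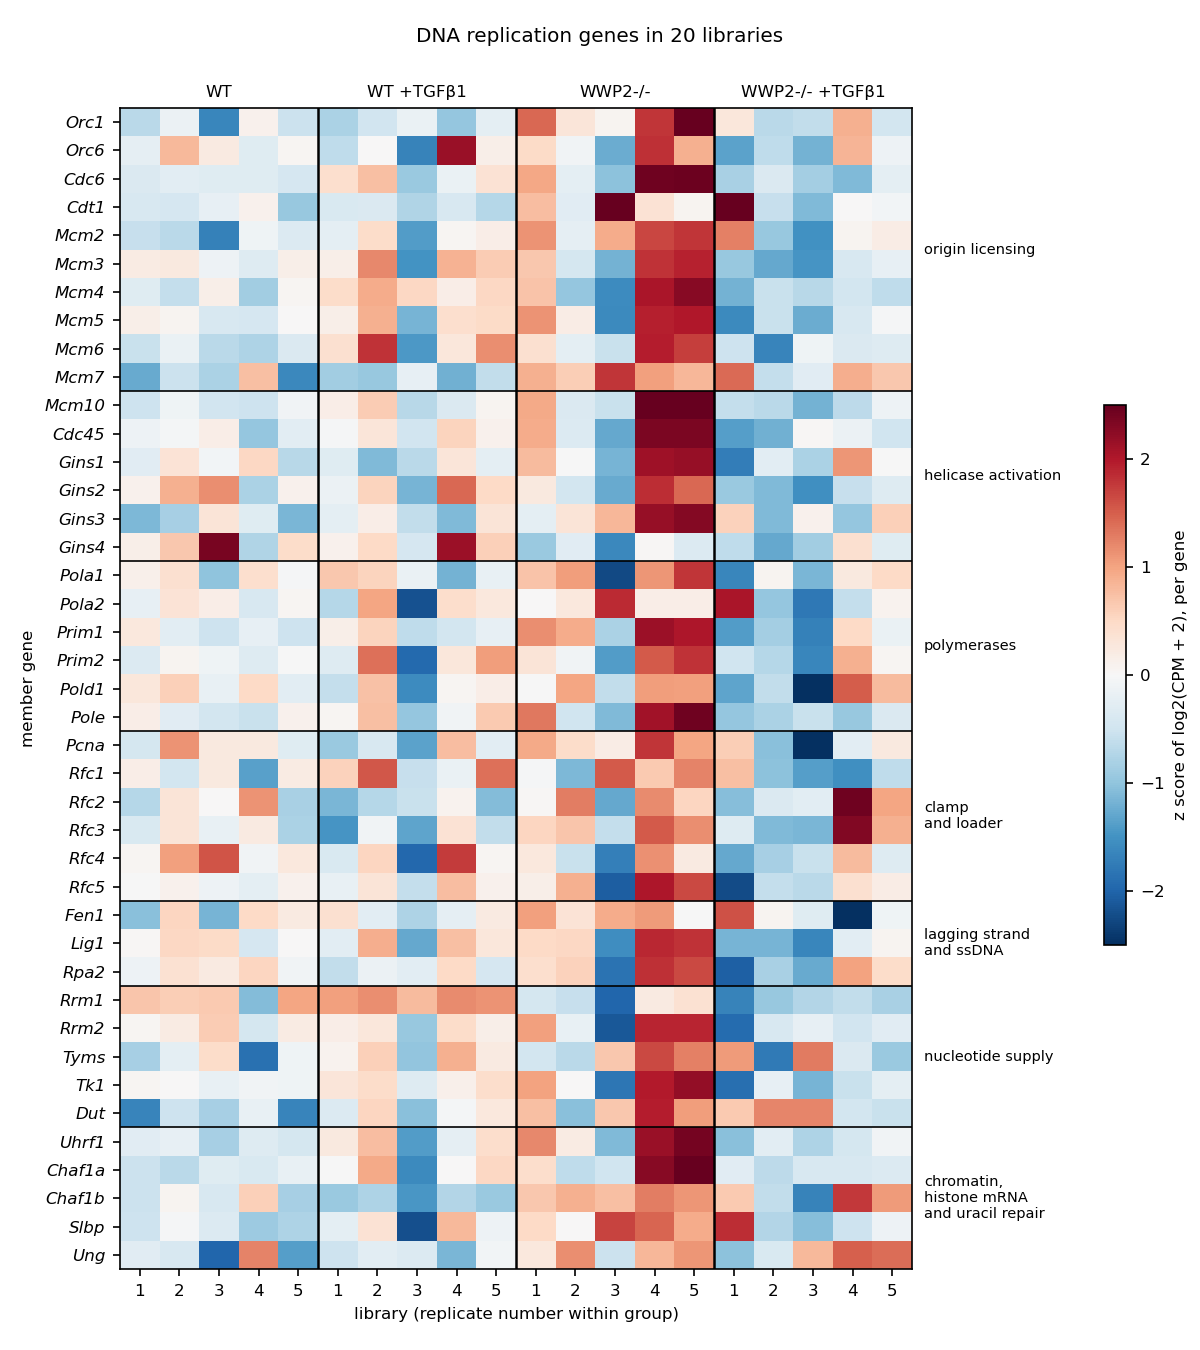
Heat map of the 41 members (rows, grouped by role) in the 20 libraries (columns, by group and replicate number); colour is the z score of log2(CPM + 2) of each gene over all libraries. Untreated WWP2-/- replicates 4 and 5 are the reddest columns, with a mean z score over the members of 1.58 and 1.47, and Rrm1 is the member with high values in nearly all WT and low values in most WWP2-/- libraries.

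In untreated cells, 38 of the 41 members were higher in WWP2-/- than in WT on the log2 scale, the exceptions being Rrm1, Gins4 and Rfc4. No member passed an adjusted p of 0.05 in edgeR's quasi-likelihood test, where 0.725% of the 20407 genes tested did. At an unadjusted p below 0.05, 17 members (41.5%) were higher, against 8.08% of all genes, and 2 (4.88%), Rrm1 and Gins4, were lower, against 6.84%. The median log2 fold change of the members was 0.36, beside 0.076 over all genes. The 17 comprised 7 of 10 licensing genes, 3 of 6 helicase activators, 2 of 6 polymerase subunits, 0 of 6 clamp and loader genes, 0 of 3 lagging-strand genes, 1 of 5 nucleotide supply genes and 4 of 5 of the last role. The count fell to 8 without untreated WWP2-/- replicate 4 (6.32% of all genes in that fit), to 9 without replicate 5 (5.69%) and to 11 without untreated WT replicate 3 (4.12%). It was 25 without the Acta2-low libraries (7.80% of all genes), when Uhrf1 and Tk1 passed the adjusted threshold along with 1.34% of all genes. DESeq2's Wald test called 4 members, Mcm7, Orc1, Uhrf1 and Mcm10, all higher, and 3.64% of all genes.

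With TGFβ1 in both genotypes the members leaned the other way. Of the 41, 28 were lower and 13 higher in WWP2-/- cells, with a median log2 fold change of -0.15 beside 0.05 over all genes. Rrm1 alone (2.44% of the members) passed the adjusted threshold, where 6.07% of all genes did. At an unadjusted p below 0.05, 5 members (12.2%) were lower, against 11.7% of all genes, and 2 (4.88%) higher, against 13.0%, so the members' shares were close to the background or below it. The 5 lower members were Rrm1, Mcm3, Mcm4, Mcm6 and Gins2, and the 2 higher were Chaf1b and Mcm7. This count of 5 rested on single libraries. It was 1 or 2 when treated WWP2-/- replicate 1, 2 or 3 or treated WT replicate 2, 4 or 5 was left out, and 10 without treated WT replicate 3 (13.9% of all genes), when Mcm3 and Mcm6 joined Rrm1 past the adjusted threshold with 13.4% of all genes. Without treated WWP2-/- replicate 3, Chaf1b joined it, with 6.03% of all genes called. DESeq2 called Rrm1, Chaf1b and Mcm7, and 13.1% of all genes.

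Set side by side, 25 members were higher in untreated and lower in treated WWP2-/- cells, 13 were higher in both, 3 (Rrm1, Gins4 and Rfc4) were lower in both, and 0 went from lower to higher. The 13 included Mcm7, Dut and Chaf1b. These are counts of signs alone, and the share of all genes with each pattern was not counted. Among the 25, the treated log2 fold changes of Pold1, Pcna, Fen1, Tyms and Rpa2 lay between -0.08 and -0.02. Without the Acta2-low libraries these were 0.052, -0.093, -0.267, -0.134 and 0.025, in the same order. Over the refits, 11 members took both signs with TGFβ1 and 5 untreated. Without the Acta2-low libraries the counts were 27, 11, 3 and 0, and Mcm2, Gins3, Pola2 and Slbp were no longer among those higher in both.

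**Figure D2:**
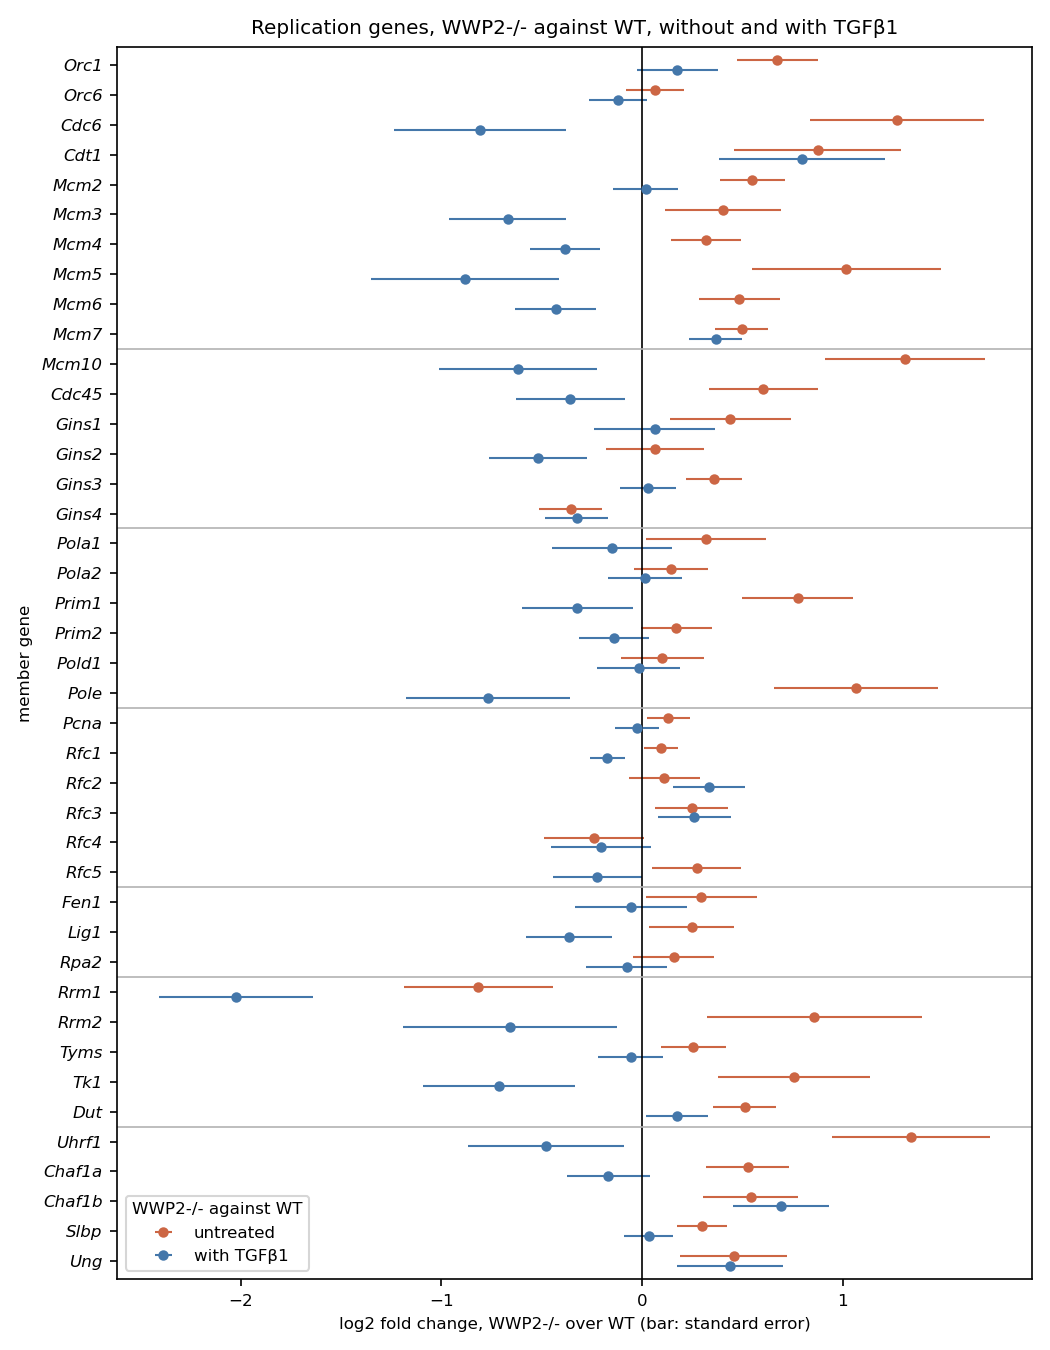
Log2 fold change of WWP2-/- over WT (x axis) for each of the 41 members (y axis, by role), untreated in orange and with TGFβ1 in blue, with bars of 1 standard error from edgeR. Most orange points lie right of 0 and most blue points left of it or near it, and Rrm1 is left of 0 in both, at -0.82 and -2.02.

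Within WWP2-/- cells, TGFβ1-treated libraries were lower than untreated ones for 39 of 41 members, with Gins4 and Rfc2 at log2 fold changes of 0.02. No member passed the adjusted threshold, and 0% of all genes did. At an unadjusted p below 0.05, 18 members (43.9%) were lower, against 2.45% of all genes, and 0 were higher, against 1.05%. The median was -0.38, beside 0.001 over all genes. The 18 held 7 licensing genes, 3 helicase activators, 2 polymerase subunits, 1 clamp or loader gene, 1 lagging-strand gene, 2 nucleotide supply genes and 2 of the last role. The count was 11 without untreated WWP2-/- replicate 4 (1.71% of all genes) and 11 without replicate 5 (1.38%). Without untreated WWP2-/- replicate 3, which is Acta2-low, 7 members passed the adjusted threshold, all lower with TGFβ1, where 0.310% of all genes did: Tk1, Cdc6, Uhrf1, Pole, Mcm10, Prim1 and Mcm5. DESeq2 called 1 member, Mcm10, and 0.240% of all genes. With both Acta2-low libraries left out, 25 members were lower at an unadjusted p below 0.05 (3.93% of all genes) and 0 passed the adjusted threshold.

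Within WT cells no such shift was seen. The members split into 24 higher and 17 lower with TGFβ1, with a median of 0.05 beside 0.016 over all genes. No member passed the adjusted threshold, as for 0% of all genes, and none was at an unadjusted p below 0.05 in either direction, where 2.66% of all genes were higher and 4.18% lower. DESeq2 called 0 members here (0.132% of all genes) and 0 in the interaction below (0.0490%). The untreated WT libraries serve as controls here as well as in the genotype comparison, and the untreated WWP2-/- libraries likewise.

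The difference between the TGFβ1 responses of the genotypes was tested as an interaction, the log2 response in WWP2-/- cells minus that in WT cells. It was negative for 36 of 41 members, with a median of -0.38 beside -0.018 over all genes. No member passed the adjusted threshold, and 0% of all genes did. Unadjusted p was below 0.05 for 15 negative members (36.6%), against 3.33% of all genes, and for 0 positive members, against 3.65%. The lowest p-values were those of Mcm10 (log2 difference -1.93, SE 0.56, adjusted p = 0.511 in edgeR), Cdc6 (-2.08, SE 0.61, adjusted p = 0.511) and Uhrf1 (-1.82, SE 0.55, adjusted p = 0.512).

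Of the licensing genes, Cdc6, the ATPase that helps load the MCM hexamer, was at 1.49, 1.59, 1.55, 1.55 and 1.44 CPM in untreated WT replicates 1 to 5 and at 3.27, 1.62, 0.846, 6.3 and 6.36 CPM in untreated WWP2-/- replicates 1 to 5. With TGFβ1 it was at 2.44, 2.93, 0.938, 1.72 and 2.37 CPM in WT and at 1.03, 1.5, 1.01, 0.773 and 1.63 CPM in WWP2-/- replicates 1 to 5. Untreated WT libraries were nearly level, and 4 of 5 untreated WWP2-/- libraries lay above all of them while replicate 3 lay below. The untreated log2 fold change of Cdc6 was 1.27 (SE 0.43, edgeR adjusted p = 0.189, two-sided exact permutation p = 0.127), and TGFβ1 in WWP2-/- cells gave -1.63 (SE 0.44, adjusted p = 0.603, exact p = 0.0873).

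Cdt1, which brings MCM to origins and is destroyed during S phase, followed another order. It was at 7.24, 7.15, 7.95, 9.27 and 5.41 CPM in untreated WT and at 12.7, 7.65, 28.0, 10.5 and 9.13 CPM in untreated WWP2-/- replicates 1 to 5. With TGFβ1 the values were 7.28, 7.37, 5.97, 7.23 and 6.13 CPM in WT and 30.1, 6.6, 4.96, 8.82 and 8.54 CPM in WWP2-/-. The Acta2-low libraries held the highest Cdt1 of all 20, at 28.0 and 30.1 CPM, against 12.7 CPM or less in the other 18. The untreated log2 fold change of Cdt1 was 0.88 (SE 0.41, edgeR adjusted p = 0.332, exact permutation p = 0.0397), and with TGFβ1 it was 0.80 (SE 0.41, adjusted p = 0.242, exact p = 0.397). Both rested largely on the Acta2-low libraries. Without them the values were 0.41 untreated (SE 0.19, edgeR adjusted p = 0.261) and 0.08 with TGFβ1 (SE 0.19, adjusted p = 0.805).

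The MCM subunits form the helicase ring. Mcm2 was at 21.7, 21.2, 16.9, 24.0 and 22.8 CPM in untreated WT and at 31.4, 23.4, 30.1, 35.2 and 36.1 CPM in untreated WWP2-/- replicates 1 to 5, so that 4 of 5 WWP2-/- libraries exceeded every WT library. With TGFβ1, Mcm2 was at 23.3, 27.2, 18.1, 24.9 and 25.5 CPM in WT and at 32.3, 20, 17.6, 25.0 and 25.6 CPM in WWP2-/-, and the groups overlapped. The untreated log2 fold change was 0.55 (SE 0.16, edgeR adjusted p = 0.123, exact permutation p = 0.0159), beside 0.02 (SE 0.16, adjusted p = 0.963) with TGFβ1, which was -0.12 without the Acta2-low libraries.

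Mcm5 spread more widely. Its values were 7.15, 6.76, 5.05, 4.98 and 6.52 CPM in untreated WT and 12.6, 7.28, 1.95, 19.6 and 20.3 CPM in untreated WWP2-/- replicates 1 to 5. Treated WT libraries held 7.1, 11, 2.85, 8.42 and 8.72 CPM and treated WWP2-/- libraries 1.97, 4.51, 2.7, 5.05 and 6.42 CPM. The lowest Mcm5 of the 20 libraries was in the Acta2-low ones. Its log2 fold changes were 1.02 untreated (SE 0.47, edgeR adjusted p = 0.322, exact permutation p = 0.333) and -0.88 with TGFβ1 (SE 0.47, adjusted p = 0.255, exact p = 0.0952), and 1.28 (adjusted p = 0.0701) and -0.71 (adjusted p = 0.168) without the Acta2-low libraries.

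Mcm7 and Mcm6 ranked among the lowest p-values. Mcm7 was at 29.4, 34.2, 32.4, 44.6 and 27.3 CPM in untreated WT and 45.9, 43.4, 55.2, 47.2 and 45.3 CPM in untreated WWP2-/- replicates 1 to 5. Treated libraries held 31.9, 31.4, 36.7, 29.8 and 33.7 CPM in WT and 51.1, 33.8, 36.1, 46.1 and 44.0 CPM in WWP2-/-. It was higher in WWP2-/- cells by 0.50 untreated (SE 0.13, edgeR adjusted p = 0.0908, exact permutation p = 0.0159) and by 0.37 with TGFβ1 (SE 0.13, adjusted p = 0.0958, exact p = 0.0317) on the log2 scale, and untreated WT replicate 4 was the only WT library in the WWP2-/- range without treatment. Without that library the untreated edgeR adjusted p of Mcm7 was 0.00878, where 3.67% of all genes passed. Mcm7 shares 7.25% of its exon length with Ap4m1 on the other strand, and the strand setting of the counting is not stated.

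Mcm6 was the member with the lowest p for TGFβ1 in WT cells. It was at 25.6, 28.3, 24.8, 24.1 and 26.9 CPM untreated and 32.8, 47.1, 20.2, 31.9 and 39.9 CPM treated in WT replicates 1 to 5, and in WWP2-/- at 32.8, 27.8, 25.6, 49.1 and 46.3 CPM untreated and 25.8, 19.1, 28.7, 26.9 and 27.2 CPM treated. Of the treated WT libraries, 4 of 5 were above all untreated ones and replicate 3 below (log2 fold change 0.41, SE 0.20, edgeR adjusted p = 0.762, exact permutation p = 0.151). Mcm4 was the member of the ring whose treated groups did not overlap, at 29.3 to 34.5 CPM in WT and 21.9 to 25.6 CPM in WWP2-/-, and its log2 fold change was -0.38 (SE 0.18, edgeR adjusted p = 0.182). Groups without overlap in this direction occurred for 3.08% of all genes. Treated WT libraries of Mcm4 also lay above the untreated ones, at 23.4 to 29.2 CPM, as for 0.588% of all genes. Mcm3 was lower with TGFβ1 in WWP2-/- by -0.67 (adjusted p = 0.163), Orc1, the large ATPase of the origin complex, was at a log2 fold change of 0.67 untreated (adjusted p = 0.131) and Orc6 at 0.07 (adjusted p = 0.855), all from edgeR.

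**Figure D3:**
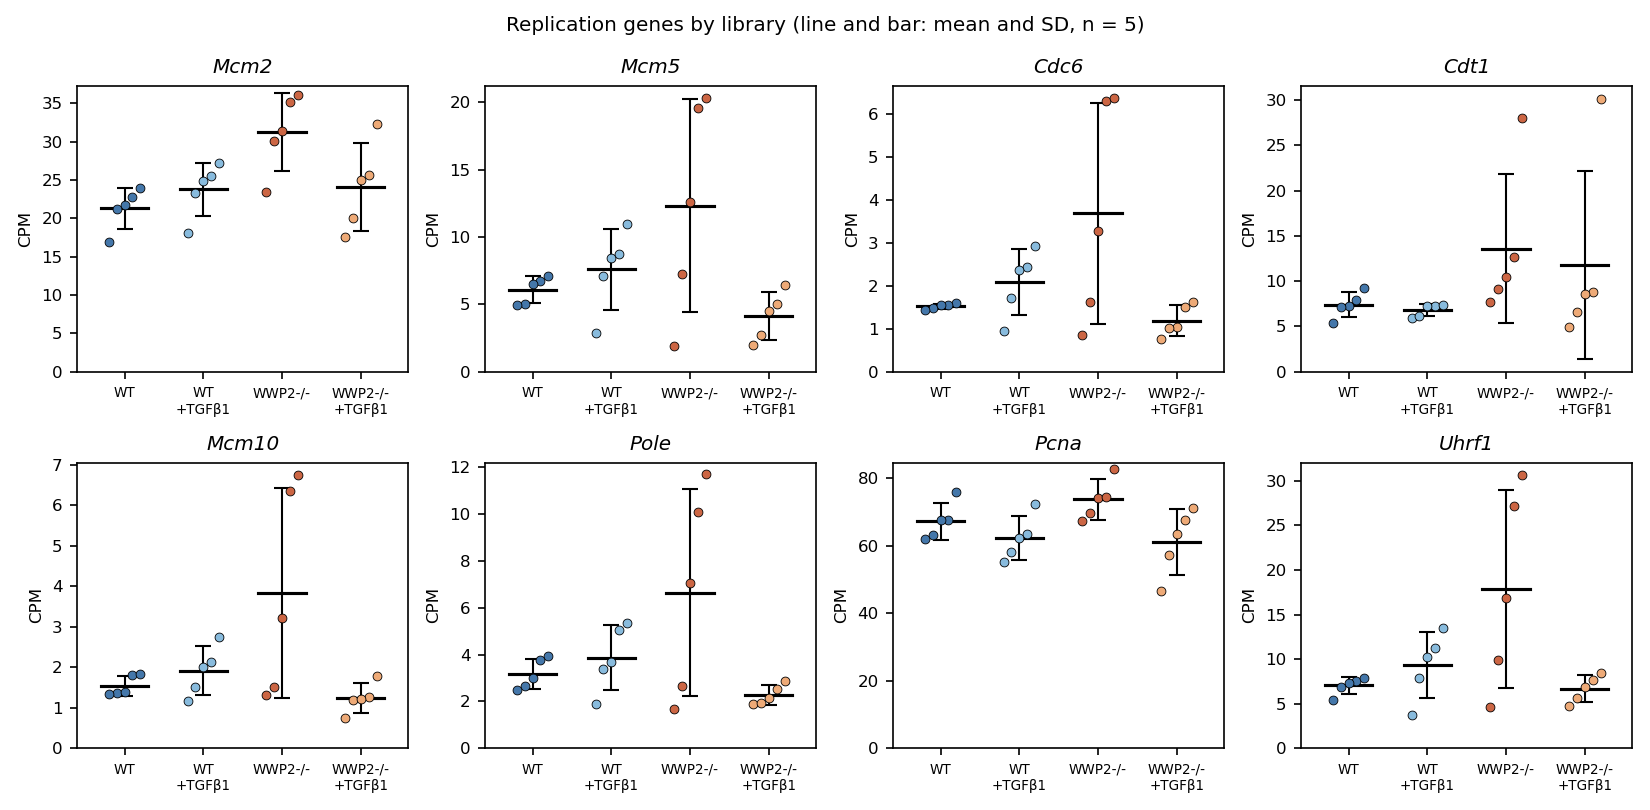
CPM of 8 members in each library, by group; points are libraries, ordered by value within a group, the line is the mean and the bar 1 SD (n = 5). In untreated WWP2-/- cells Cdc6, Mcm5, Mcm10, Pole and Uhrf1 span from below the WT libraries to several times above them, Cdt1 has 1 high library in each WWP2-/- group (28.0 and 30.1 CPM), and Pcna varies little.

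Of the helicase activators, Mcm10, which helps the loaded helicase start, was at 1.36, 1.8, 1.39, 1.35 and 1.83 CPM in untreated WT and at 3.23, 1.52, 1.31, 6.35 and 6.76 CPM in untreated WWP2-/- replicates 1 to 5. After TGFβ1 the values were 2.12, 2.76, 1.18, 1.52 and 2.0 CPM in WT and 1.28, 1.2, 0.747, 1.22 and 1.79 CPM in WWP2-/-. Treated WWP2-/- libraries lay below every untreated WWP2-/- library in 4 of 5 cases, which gave the lowest p of the members for that comparison (log2 fold change -1.62, SE 0.40, edgeR adjusted p = 0.603, exact permutation p = 0.0476).

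Cdc45, the helicase cofactor that joins MCM and GINS, was at 4.01, 4.11, 4.42, 2.95 and 3.81 CPM in untreated WT and 5.66, 3.72, 2.6, 8.66 and 8.67 CPM in untreated WWP2-/- replicates 1 to 5. With TGFβ1 it was at 4.15, 4.63, 3.53, 5.03 and 4.33 CPM in WT and 2.51, 2.68, 4.24, 3.97 and 3.52 CPM in WWP2-/-. Its untreated groups overlapped (log2 fold change 0.60, SE 0.27, edgeR adjusted p = 0.314, exact permutation p = 0.238). Of the GINS subunits, Gins3 was at 0.36 (adjusted p = 0.249), Gins1 at 0.44 (adjusted p = 0.504), Gins2 at 0.07 (adjusted p = 0.917) and Gins4 at -0.36 (adjusted p = 0.304) in the untreated edgeR comparison. Gins2 shares 67.3% of its exon length with Gse1 on the other strand, so its counts cannot be assigned to it alone.

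Among the polymerases, Pole, the catalytic subunit of the leading-strand polymerase, was at 3.92, 3.0, 2.68, 2.51 and 3.77 CPM in untreated WT and 7.05, 2.64, 1.69, 10.1 and 11.7 CPM in untreated WWP2-/- replicates 1 to 5. Treated libraries held 3.67, 5.37, 1.88, 3.39 and 5.06 CPM in WT and 1.89, 2.16, 2.52, 1.92 and 2.87 CPM in WWP2-/-. Untreated WWP2-/- replicates 1, 4 and 5 exceeded every other library, and replicate 3 was the lowest of all 20. The log2 fold changes of Pole were 1.07 untreated (SE 0.41, edgeR adjusted p = 0.244, exact permutation p = 0.198) and -1.55 for TGFβ1 in WWP2-/- cells (SE 0.41, adjusted p = 0.603, exact p = 0.111).

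Pola1, the catalytic subunit of the polymerase that extends primers, lies on the X chromosome and moved less. It was at 6.53, 7.16, 4.4, 7.22 and 6.21 CPM in untreated WT and 7.91, 8.81, 2.66, 8.97 and 11 CPM in untreated WWP2-/- replicates 1 to 5, and 7.8, 7.51, 5.93, 4.14 and 5.88 CPM in treated WT and 3.47, 6.4, 4.18, 6.79 and 7.37 CPM in treated WWP2-/- libraries. Again 4 of 5 untreated WWP2-/- libraries were above the WT range and replicate 3 below it (log2 fold change 0.32, SE 0.30, edgeR adjusted p = 0.638, exact permutation p = 0.651). Without the Acta2-low libraries it was 0.52 (adjusted p = 0.187). The primase subunit Prim1 was at 0.78 untreated (adjusted p = 0.212) and -1.02 for TGFβ1 in WWP2-/- cells (adjusted p = 0.607), while Prim2, Pola2 and the lagging-strand polymerase Pold1 were at 0.10 to 0.17 untreated.

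Of the clamp, its loader and the lagging-strand genes, Pcna, the ring that holds polymerases on DNA, was at 62.0, 75.9, 67.8, 67.8 and 63.1 CPM in untreated WT and 74.3, 69.7, 67.3, 82.9 and 74.6 CPM in untreated WWP2-/- replicates 1 to 5. After TGFβ1 the values were 58.1, 62.3, 55.1, 72.5 and 63.5 CPM in WT and 71.2, 57.2, 46.5, 63.5 and 67.7 CPM in WWP2-/-. The most abundant member per kilobase was thus among the least variable, with an untreated log2 fold change of 0.13 (SE 0.11, edgeR adjusted p = 0.582, exact permutation p = 0.127) and -0.27 for TGFβ1 in WWP2-/- cells (SE 0.11, adjusted p = 1, exact p = 0.0397). The 5 subunits of its loader, Rfc1 to Rfc5, ran from -0.24 to 0.27 untreated and from -0.22 to 0.33 with TGFβ1, none at an unadjusted p below 0.05. Without the Acta2-low libraries they ran from -0.128 to 0.429 untreated and from -0.23 to 0.419 with TGFβ1. Lig1, which seals Okazaki fragments, was at -0.60 for TGFβ1 in WWP2-/- cells (adjusted p = 0.944 in edgeR), and Rpa2, a subunit of the single-strand binding protein, at -0.36. Fen1, the flap nuclease, was at 0.359 to 1.6 CPM, and 78.8% of its exon length overlaps an antisense gene, so its values are uncertain.

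In nucleotide supply, Rrm2, the small subunit of ribonucleotide reductase that accumulates in S phase, was at 17.5, 19.6, 26.3, 12.4 and 19.5 CPM in untreated WT and 33.8, 15.0, 3.04, 60.7 and 60.2 CPM in untreated WWP2-/- replicates 1 to 5. With TGFβ1 it was at 19.0, 20.6, 8.54, 23.4 and 18.9 CPM in WT and 3.71, 12.7, 14.8, 12.1 and 13.9 CPM in WWP2-/-. The Acta2-low libraries were the lowest of the 20, at 3.04 and 3.71 CPM against 8.54 CPM or more. Its log2 fold changes were 0.86 untreated (SE 0.54, edgeR adjusted p = 0.459, exact permutation p = 0.817) and -0.66 with TGFβ1 (SE 0.53, adjusted p = 0.475, exact p = 0.159). Without the Acta2-low libraries they were 1.14 (SE 0.34, edgeR adjusted p = 0.0912) and -0.44 (SE 0.35, adjusted p = 0.409). The exact test compares mean log2 CPM, whose untreated difference over all libraries was 0.27 for Rrm2.

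Rrm1 behaved differently from its partner. It was at 210, 200, 206, 59.3 and 260 CPM in untreated WT and at 93.9, 86.3, 31.0, 152 and 169 CPM in untreated WWP2-/- replicates 1 to 5. Treated libraries held 267, 295, 225, 300 and 285 CPM in WT and 38.7, 66.1, 76.6, 83.9 and 72.4 CPM in WWP2-/-. Treated groups did not overlap, and among untreated WT libraries only replicate 4 fell into the WWP2-/- range. The gene (ENSMUSG00000030978, GRCm38 chr7:102441695-102469771) was lower in treated WWP2-/- cells by a log2 fold change of -2.02 (SE 0.38, edgeR adjusted p = 0.00991, two-sided exact permutation p = 0.00794, the smallest that 5 against 5 libraries allow). Over 18 alternatives the value ran from -2.24 to -1.88 and the adjusted p from 2.97e-05 to 0.0286. Untreated, it was at -0.82 (SE 0.37, adjusted p = 0.316, exact p = 0.175), and TGFβ1 gave 0.55 in WT (adjusted p = 0.87, exact p = 0.0159) and -0.66 in WWP2-/- cells (adjusted p = 1, exact p = 0.325).

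The ratio of Rrm1 to Rrm2 per kilobase was 1.21 to 3.36 in untreated WT and 3.22 to 6.64 in treated WT libraries, and 0.629 to 2.57 and 1.3 to 2.63 in untreated and treated WWP2-/- libraries. The lowest 3 ratios were in untreated WWP2-/- replicates 1, 4 and 5, where Rrm2 was highest. In untreated WT replicate 4, which had the lowest Rrm1 of the WT libraries, the summed CPM of 10 fibroblast and myofibroblast markers was 5963, against 16068 to 21904 in the other untreated WT libraries, and that of 10 macrophage markers was 4029, against 163 to 1184. Within the fibroblast list, Col1a1, Col1a2, Col3a1, Dcn, Pdgfra, Pdgfrb and Thy1 were lowest in replicate 4 of the untreated WT libraries. Vim and Tagln lay within the range of the others, and Acta2 was highest, at 1305 CPM against 1016 to 1271 CPM. Lyz2 alone held 3231 CPM of the macrophage sum. The part of these sums in the level of Rrm1 was not tested.

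**Figure D4:**
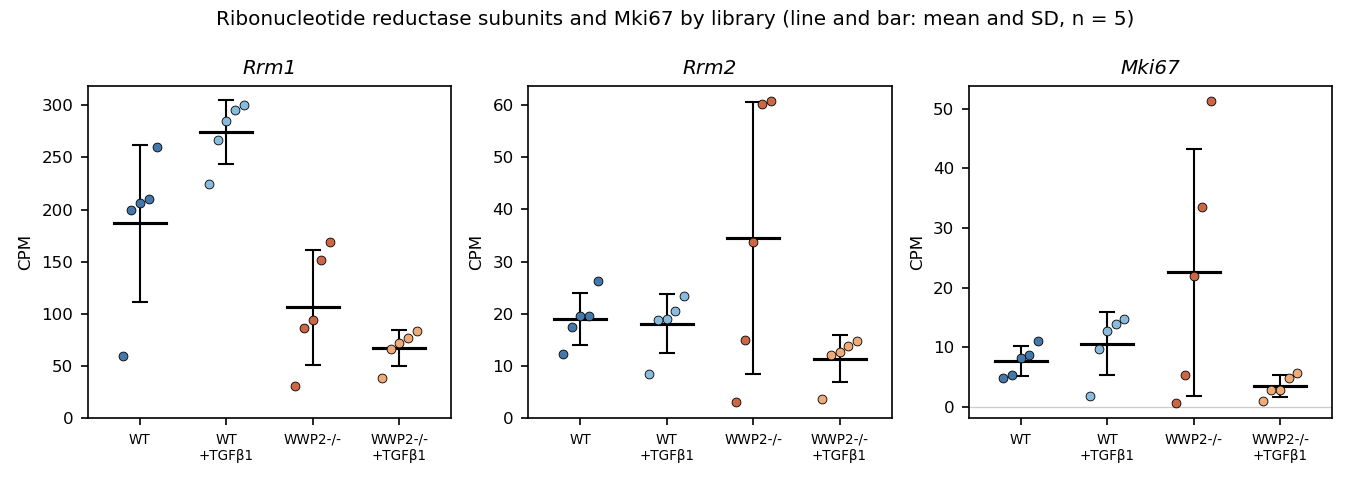
CPM of Rrm1, Rrm2 and the proliferation marker Mki67 in each library, by group; points are libraries, ordered by value within a group, the line is the mean and the bar 1 SD (n = 5). All treated WT libraries hold more Rrm1 (225 to 300 CPM) than all treated WWP2-/- libraries (38.7 to 83.9 CPM), whereas Rrm2 and Mki67 share their highest values in untreated WWP2-/- cells.

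Tyms, which makes dTMP, was at 10.5, 11.6, 13.1, 8.74 and 11.9 CPM in untreated WT and 11.2, 10.8, 13.6, 16 and 15.0 CPM in untreated WWP2-/- replicates 1 to 5. After TGFβ1 the values were 12.3, 13.4, 10.2, 14.1 and 12.6 CPM in WT and 14.5, 8.88, 15.1, 11.4 and 10.3 CPM in WWP2-/-. Its groups overlapped in every comparison (untreated log2 fold change 0.26, SE 0.16, edgeR adjusted p = 0.469, exact permutation p = 0.135). Dut was at 27.3, 34.6, 32.5, 37.2 and 27.3 CPM in untreated WT and 45.2, 31.0, 44.5, 58.0 and 47.9 CPM in untreated WWP2-/-, and 35.9, 43.1, 31.0, 38.2 and 40.8 CPM in treated WT and 44.3, 49.7, 49.7, 35.1 and 34.3 CPM in treated WWP2-/- libraries. It was above all untreated WT libraries in 4 of 5 untreated WWP2-/- libraries (log2 fold change 0.51, SE 0.16, edgeR adjusted p = 0.136, exact permutation p = 0.0317). Tk1, the thymidine salvage kinase, was at 0.76 untreated (adjusted p = 0.353) and -1.27 for TGFβ1 in WWP2-/- cells (adjusted p = 0.633), both from edgeR.

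Of the chromatin and repair genes, Uhrf1, which recruits the maintenance DNA methyltransferase to newly copied DNA, was at 7.59, 7.92, 5.44, 7.37 and 6.91 CPM in untreated WT and 16.9, 9.95, 4.59, 27.2 and 30.7 CPM in untreated WWP2-/- replicates 1 to 5. With TGFβ1 it was at 10.2, 13.5, 3.77, 7.86 and 11.3 CPM in WT and 4.78, 7.62, 5.63, 6.88 and 8.5 CPM in WWP2-/-. In the untreated comparison 4 of 5 WWP2-/- libraries lay above the WT range and the Acta2-low replicate 3 below it, and the log2 fold change of 1.34 was the largest of the members (SE 0.40, edgeR adjusted p = 0.124, exact permutation p = 0.0952). Without the Acta2-low libraries it was 1.57 (adjusted p = 0.038).

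Chaf1b, a subunit of the histone chaperone CAF-1, was at 5.26, 6.51, 5.52, 7.72 and 4.73 CPM in untreated WT and 7.95, 8.52, 8.11, 9.6 and 9.1 CPM in untreated WWP2-/- replicates 1 to 5, without overlap (log2 fold change 0.54, SE 0.24, edgeR adjusted p = 0.298, exact permutation p = 0.00794). Such separation in this direction held for 1.5% of all genes and, among the members, also for Slbp, the binding protein of histone mRNA, at 21.3 to 24.2 CPM in WT and 24.3 to 30.9 CPM in WWP2-/-. With TGFβ1, Chaf1b was at 4.56, 4.85, 3.73, 4.91 and 4.57 CPM in WT and 7.87, 5.12, 3.41, 11.2 and 8.97 CPM in WWP2-/-, and 4 of 5 WWP2-/- libraries exceeded every WT library (log2 fold change 0.69, SE 0.24, edgeR adjusted p = 0.0833, exact permutation p = 0.111). Its partner Chaf1a was at 0.53 untreated (adjusted p = 0.253) and -0.17 with TGFβ1 (adjusted p = 0.665), with 52.5% of its exon length shared with Ubxn6 on the other strand. Ung, which removes uracil from DNA, was at 0.46 and 0.44 (adjusted p = 0.425 and 0.318).

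The spread between libraries was largest in untreated WWP2-/- cells. The median SD of log2 CPM over the members was 0.43 there, against 0.2 in untreated WT, 0.24 in treated WT and 0.34 in treated WWP2-/- cells, and 23 of 41 members had their largest SD in that group. Replicate 4 of untreated WWP2-/- was above every untreated WT library for 36 members, replicate 5 for 32, replicate 1 for 26, replicate 2 for 13 and replicate 3 for 11. Replicate 3 was below every untreated WT library for 24 members, the other replicates for 0 to 3. Replicates 4 and 5 both exceeded the other 18 libraries in 21 members. The mean z score over the 41 members was 1.58 and 1.47 in these replicates, 0.55 in replicate 1 and -0.53 in replicate 3, and from -0.94 to 0.39 in all WT libraries.

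The Acta2-low libraries shared a profile of their own. Besides the highest Cdt1 they held the highest Mcm7 (55.2 and 51.1 CPM, against 27.3 to 47.2 elsewhere), Pola2 (20.4 and 21.1, against 9.3 to 17.3) and Slbp (30.9 and 31.6, against 17.6 to 29.9). They held the lowest Rrm1, Rrm2, Mcm5, Tk1 (2.42 and 2.27 CPM, against 3.67 to 18.9), Rfc5 and Rpa2. Mki67, the antigen of cycling cells, was at 0.604 and 1.03 CPM in them and at 1.84 to 51.3 CPM in the other 18. Among the smaller untreated fold changes, those without these libraries were 0.12 for Orc6, 0.19 for Gins2, 0.02 for Pola2, 0.16 for Pold1 and 0.43 for Rfc5, and that of Gins4 for TGFβ1 in WWP2-/- cells was -0.02.

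Within libraries with and without Xist, each treated comparison set 1 library against 4, so these values describe single libraries and no sign is read from them. Among libraries with Xist, the median of the members' differences in mean log2 CPM, WWP2-/- minus WT, was 0.07 untreated. This set 2 libraries against 4, and 1 of the 2 was the Acta2-low replicate 3. With TGFβ1 the median was -0.47 (1 against 4, the Acta2-low library being the only one). Without Xist it was 0.38 untreated (3 against 1) and 0.27 with TGFβ1 (4 against 1), the latter against treated WT replicate 3, which had the lowest mean z score of the 20 libraries (-0.94) and was among the lowest 3 for 23 members. For Rrm1 the treated difference was -2.89 with Xist and -1.6 without, and the untreated one -2.01 and 1.14, the latter against untreated WT replicate 4 alone. For TGFβ1 in WWP2-/- cells the median was -0.21 with Xist, where the only treated library and 1 of 2 untreated ones were Acta2-low. Without Xist it was -0.53, and 41 of 41 members were lower. With log2 CPM of Xist as a covariate in edgeR, the medians were 0.35 untreated, -0.21 with TGFβ1 and -0.41 for TGFβ1 in WWP2-/- cells.

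Markers of other kidney cells also differed between libraries. The summed CPM of 10 macrophage markers was 163 to 4029 in untreated WT, 81.7 to 457 in treated WT, 94.1 to 1841 in untreated WWP2-/- and 91.8 to 3608 in treated WWP2-/- libraries. In treated cells all 10 were higher in WWP2-/- at an unadjusted p below 0.05, against 13.0% of all genes, and 0 passed the adjusted threshold. For 10 tubular markers the sums were 36.9 to 431, 42.2 to 212, 14.0 to 786 and 12.3 to 567 CPM in the same order, with Slc34a1 and Umod at no more than 0.171 CPM, and for 8 endothelial markers 34.3 to 86.2, 30.0 to 190, 9.32 to 175 and 12.1 to 181 CPM. The fibroblast and myofibroblast markers summed to 5963 to 21904, 12703 to 35356, 4328 to 13589 and 5317 to 16668 CPM. In treated cells Col1a1 and Col1a2, the collagen I chains, were lower in WWP2-/- (log2 fold changes -1.98 and -2.63, edgeR adjusted p = 0.0492 and 0.0142), as were the endothelial receptors Kdr and Tek (-1.76 and -2.87, adjusted p = 0.0351 and 0.0135), and Tek also untreated (-3.32, adjusted p = 0.023). Of the 8 endothelial markers, 6 were higher and 2 lower in treated WWP2-/- cells, with a median log2 fold change of 0.6. Untreated, 5 were higher and 3 lower, with a median of 0.71. The part of any of these marker lists in the levels of the members was not tested. Untreated WWP2-/- replicates 4 and 5, where the members were highest, had macrophage sums of 518 and 396 CPM and fibroblast sums of 13364 and 13589 CPM.

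Related lists of genes, none of them members, were read beside the 41. Of 42 other replication genes, 13 were higher in untreated WWP2-/- cells at an unadjusted p below 0.05, against 8.08% of all genes. With TGFβ1 in WWP2-/- cells 15 were lower at that level, against 2.45%. The medians were 0.27 and -0.21, and 0 passed the adjusted threshold in either. With TGFβ1 in both genotypes 24 of the 42 were lower and 18 higher in WWP2-/- cells. Of these, 1 passed the adjusted threshold, Timeless, a fork-protection factor, which was lower (log2 fold change -1.04, SE 0.27, edgeR adjusted p = 0.0327). In that comparison 6.07% of all genes passed, and 2 of 14 other nucleotide synthesis genes did. Samhd1, which degrades deoxynucleotides, was lower by -1.51 (SE 0.27, adjusted p = 0.00783), at 104 to 275 CPM in WT and 32.0 to 80.9 CPM in WWP2-/-, and Umps, an enzyme of pyrimidine synthesis, was higher by 0.37 (SE 0.09, adjusted p = 0.0182), both by edgeR.

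Among 13 E2F and pocket protein genes and 9 genes of cyclins E and A and their kinases, 0 passed the adjusted threshold in any comparison. Of the E2F list 2 were higher untreated and 1 higher and 1 lower with TGFβ1 at an unadjusted p below 0.05. Of the cyclin list 6 were higher untreated and 3 lower with TGFβ1. Over all genes 8.08% were higher untreated, and 13.0% were higher and 11.7% lower with TGFβ1. Ccne1, a G1/S cyclin, was at a log2 fold change of -0.07 untreated (edgeR adjusted p = 0.936) and -0.90 with TGFβ1 (adjusted p = 0.115). Untreated, 7 genes of the cyclin list were higher and 2 lower, with a median of 0.53. Ccne2, the other cyclin E gene, had a mean of 6.96 CPM (SD 4.54) in untreated WWP2-/- and 3.6 CPM (SD 0.234) in untreated WT.

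The 20 mitosis genes leaned as the members did and by more. Their median log2 fold change was 1.4 untreated and -1.36 with TGFβ1. It was -2.06 for TGFβ1 in WWP2-/- cells, 0.48 for TGFβ1 in WT cells and -2.66 in the interaction. In this order, 14, 13, 20, 0 and 20 genes were at an unadjusted p below 0.05 in the direction of the median. Over all genes the shares were 8.08%, 11.7%, 2.45%, 2.66% and 3.33%. The adjusted threshold was passed by 0 mitosis genes. Mki67 was at 8.73, 8.27, 5.42, 4.84 and 11.1 CPM in untreated WT and 21.9, 5.3, 0.604, 33.6 and 51.3 CPM in untreated WWP2-/- replicates 1 to 5, high in the same 3 libraries as Cdc6 and Pole. Treated libraries held 12.8, 14.8, 1.84, 9.72 and 13.9 CPM in WT and 1.03, 2.78, 2.74, 5.66 and 4.86 CPM in WWP2-/-. Its log2 fold change was 1.56 untreated (SE 0.75, edgeR adjusted p = 0.338) and -1.64 with TGFβ1 (SE 0.75, adjusted p = 0.186).

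Members whose promoter window held an E2F motif were set beside members whose window held none of those searched, without a test. The medians were 0.48 and 0.3 untreated, -0.15 and -0.12 with TGFβ1, and -0.48 and -0.33 for TGFβ1 in WWP2-/- cells. They were 0.01 and 0.06 for TGFβ1 in WT cells and -0.5 and -0.34 in the interaction. These are medians over 13 and 21 members, 7 others having no window, and the ranges overlapped in each comparison. Of the windows printed above, those of Mcm5 and Cdc6 belong to members with untreated log2 fold changes above 1, and that of Pola1 to one at 0.32. By position, 6 of the 41 members lie on chromosome 8, the chromosome of Wwp2: Orc6, Cdt1, Mcm5, Gins2, Gins3 and Gins4, at 11.8 to 84.2 Mb from it. Their untreated log2 fold changes ran from -0.36 for Gins4 to 1.02 for Mcm5.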

How the data were processed

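The authors deposited 1 table of whole-number read counts per Ensembl gene for 20 libraries. Per the labels and methods, poly-A libraries were sequenced as 2 × 150 bp pairs, mapped with STAR to GRCm38 (mm10, v89) and counted over exons with featureCounts; the strand setting is not given in the sources used here. The TGFβ1 dose, printed as 5 ng/μl, and the time come from the figure legends for these cells, not from the labels, and the unit may be a slip for ng/ml. Columns were matched to samples by name and grouped by genotype and treatment, 5 a group; 0 columns of per-sample values went unused. The 41 members and all other gene lists were chosen with earlier results of these data known.

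Counts were fitted in R 4.3.3 with edgeR 4.0.16 (quasi-likelihood test, TMM, all 20 libraries, 4 groups, no block), on the 20407 genes reaching 5 counts in 5 or more libraries, which held 99.98% of all counts. Adjusted p is Benjamini-Hochberg over all genes tested, threshold 0.05. Single members were also tested by a two-sided exact permutation test of mean log2 CPM over 252 arrangements. The difference it tests can be smaller than the edgeR fold change printed beside it. Untreated, it was 0.89 for Cdc6, 0.63 for Mcm5 and 1.05 for Uhrf1. CPM used TMM-scaled totals. Values were listed for each library for 10 members chosen by role (Mcm2, Mcm5, Cdc6, Cdt1, Cdc45, Pola1, Pcna, Rrm2, Tyms and Uhrf1) and for the 3 with the smallest p in each comparison, 17 in all; other lists give members past the threshold, at most 4 a list, with Mki67 and Ccne1. Mcm3, Mcm4, Orc1 and the other members were named by their values. Ccne2 and some cell type markers were named outside the rule for other lists, with their values known. Alternatives were DESeq2 1.42.0 (Wald test), its size factors, no filter, at least 10 counts in every library, a replicate block, Xist as covariate, only the groups compared, and each library left out. Leaving out both Acta2-low libraries, and repeating the counts at an unadjusted p, were chosen after seeing the data. Gene positions and exon overlaps came from GENCODE M21 on GRCm38, which named 51633 of 51826 genes, and promoters from RefSeq. Scripts were tested on simulated data. No 2 libraries were identical, and no 2 of the same group agreed within sampling noise. Libraries of different groups were not compared in this second way.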

Additional observations from a re-analysis of the deposited data

Results flagged for a closer look

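Of 68 groups of 5 libraries examined, for the 17 members listed library by library, 3 held a library whose gap to the next exceeded the critical value of 0.71 of the group's range, which chance gives in about 1 group in 20. Cdt1 was at 28.0 CPM in untreated WWP2-/- replicate 3, against 7.65 to 12.7 CPM in the other replicates, and at 30.1 CPM in treated WWP2-/- replicate 1, against 4.96 to 8.82 CPM. Rrm2 was at 3.71 CPM in treated WWP2-/- replicate 1, against 12.1 to 14.8 CPM. Both libraries are the Acta2-low ones.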

How the results depend on the processing

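The 3 members with the smallest p in each comparison kept their sign under every refit listed here, and of 294 such values 283 kept their side of the threshold and 11 gained significance. Over all 41 members, 5 took both signs untreated, 11 with TGFβ1, 14 and 6 for TGFβ1 in WT and WWP2-/- cells and 7 in the interaction, Cdt1 in the last of these and for TGFβ1 in WWP2-/- cells. The medians over the members moved by less than 0.227, their spread between libraries: 0.25 to 0.43 untreated, -0.23 to -0.09 with TGFβ1, 0.01 to 0.11 and -0.51 to -0.29 for TGFβ1 in WT and WWP2-/- cells and -0.54 to -0.29 in the interaction with 1 library left out. Counts moved more. Members past the threshold, 1 with TGFβ1 in both genotypes, were 3 by DESeq2's Wald test, 2 with only the groups compared and 1 to 3 with 1 library left out. Untreated, 0 became 4 by DESeq2, 2 without the Acta2-low libraries and 0 to 1 with 1 left out. For TGFβ1 in WWP2-/- cells, 0 became 1 by DESeq2 and 0 to 7 with 1 left out, and in WT cells and the interaction it stayed 0. Members lower with TGFβ1 in both genotypes at an unadjusted p below 0.05, 5, were 3 with DESeq2 size factors, 2 with at least 10 counts in every library, 2 with the replicate block, and 1 to 10 with 1 left out. The 17 higher untreated became 8 to 22, the 18 lower for TGFβ1 in WWP2-/- cells 11 to 23 (11 with only the groups compared), and the 15 in the interaction 10 to 20.

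Over all genes, the 1238 calls with TGFβ1 in both genotypes were 2672 by DESeq2, 790 without filter, 670 with the replicate block, 630 with Xist as covariate, 534 with only the groups compared, 3480 without the Acta2-low libraries and 453 to 2730 with 1 left out. The 148 untreated calls were 743 by DESeq2, 1 with the replicate block, 82 with Xist, 1 with only the groups compared, 271 without the Acta2-low libraries and 1 to 743 with 1 left out, so the background share of 0.725% rests on single libraries. For TGFβ1 in WT cells 0 became 27 by DESeq2 and 1 with Xist, in WWP2-/- cells 49 by DESeq2 and 0 to 63 with 1 left out, and in the interaction 10 by DESeq2. The causes were not tested. Same-numbered libraries did not pair: their deviations from the group means correlated between -0.522 and 0.443, so the block removes a number only. Some libraries correlated more with another number, untreated WWP2-/- replicates 3 and 2 with treated replicates 1 (0.907) and 5 (0.766), and untreated WT replicate 4 with treated replicate 3 (0.727). The labels do not say whether these shared cultures, and the TGFβ1 and interaction tests treat them as separate. With the block Rrm1 stayed called and the untreated count of higher members was 14. Low members such as Fen1 (0.359 to 1.6 CPM) are the more limited by depth.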
